A study of Mus musculus with 9 samples.

Results

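The clustered protocadherin genes of mouse chromosome 18 were examined in RNA-seq counts from mouse embryonic fibroblasts (MEFs). They were chosen as the protein-coding genes on chromosome 18 whose symbol in the GENCODE M21 annotation starts with Pcdha, Pcdhb or Pcdhg. The rule found 57 genes among the 43629 genes of the count table, 14 in the alpha, 22 in the beta and 21 in the gamma cluster. One further gene with such a symbol, Pcdhgb8, is annotated as a polymorphic pseudogene and was left out. The cultures came from E14.5 embryos, with 1 culture per embryo. The labels give the strain of both genotypes as C57BL/6J.129P2, and by the methods of the study the mice had been backcrossed to C57BL/6JNimr. There were 4 cultures from wild-type (WT) embryos and 5 from Dp1Tyb littermates, and no other allele or treatment was given for either group. Dp1Tyb mice carry an extra copy of the region of chromosome 16 from Lipi to Zbtb21, which is orthologous to part of human chromosome 21, so the protocadherin clusters lie outside the duplication. MEFs were grown from embryos without head and viscera and are a mixed, passaged population rather than a clone. The comparison asks whether these genes, which lie on another chromosome, differ in RNA level between Dp1Tyb and WT cultures.

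Clustered protocadherins are cell surface cadherins best known from neurons, where different isoforms on neighbouring cells take part in self-recognition. In the alpha and gamma clusters, each gene has its own promoter and its own large variable exon, which encodes the extracellular cadherin repeats, the membrane span and part of the cytoplasmic tail, and splicing joins it to constant exons that all genes of the cluster share. Genes of the beta cluster lack constant exons. In a neuron, most isoforms are switched on by a choice among these promoters that depends on CTCF and cohesin, whereas the C-type isoforms at the ends of the alpha and gamma clusters follow a different, less variable programme.

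WT cultures had total counts of 25571442 to 30009361, and Dp1Tyb cultures of 24804539 to 26782380. Counts below are scaled with edgeR's TMM factors to a culture of average depth and are called normalised counts. The labels number the cultures in a first set, which holds replicate 1 of each genotype, and a second set of 7. The fibroblast genes were abundant in every culture, with between 208763 and 445265 normalised counts of the collagen gene Col1a1. Of 10 neuron markers, Rbfox3 and Elavl3 had at most 1 count in any culture, whereas Tubb3 had between 556 and 1832 normalised counts, Map2 between 182 and 928 and Stmn2 between 77.8 and 915. The p-values measure the spread between these cultures.

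All 57 genes lie on the plus strand of GRCm38. The alpha cluster runs from 36930184 to 37187661 on chromosome 18, the beta cluster from 37264938 to 37524479 and the gamma cluster from 37661793 to 37841873. The 14 alpha genes share 3 constant exons of 59, 89 and 2712 bases. The 21 gamma genes share 3 constant exons as well, of 59, 89 and 1968 bases. The beta genes share none with the rest of the cluster, except that Pcdhb21 and Pcdhb22 overlap in 455 bases. Within the gamma cluster, Pcdhgb1 overlaps Pcdhga4 in 1038 bases and Pcdhgb4 overlaps Pcdhga8 in 108 bases. Exon sequence used by no other gene was therefore between 8.56% and 61.1% of an alpha gene, between 90.3% and 100% of a beta gene and between 33.2% and 68.5% of a gamma gene. A read in a shared exon cannot be given to a single gene, so the counts of alpha and gamma genes come from the unshared exons if such reads were dropped, which is not stated. Pcdha4 was left with only 494 unshared bases because the readthrough gene Gm42416, which had no count in any culture, covers 2410 bases of it. If reads in shared exons were dropped, those in these bases were not counted for Gm42416 either. GENCODE M21 gives the symbol Pcdha11 to both ENSMUSG00000007440 and ENSMUSG00000102206, which are kept apart by their identifiers here. Genes on the opposite strand overlap several members. The unshared 2613 bases of Pcdhga10 all lie opposite Gm26672, yet Pcdhga10 had between 246 and 391 counts and Gm26672 between 5 and 25. BC037039, which lies opposite 1559 bases of Pcdhgc3, had between 31 and 96 counts. The strand setting of the counting was not given in the sources used here, so reads from such partners may not have been separated.

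Because gene lengths and shared exons differ, levels were compared between genes as normalised counts per kb of unshared exon. In MEFs the gamma cluster was expressed from all of its 21 genes, the beta cluster from most of its 22 and the alpha cluster chiefly from its last gene. Without division by length, gamma genes made up 86.3% of all normalised counts of the clusters, beta genes 11.98% and alpha genes 1.68%. A smaller part of alpha and gamma genes than of beta genes is unshared, so these percentages are not on the same footing. In bulk RNA, fewer expressing cells and less RNA per cell cannot be told apart.

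**Figure D1:**
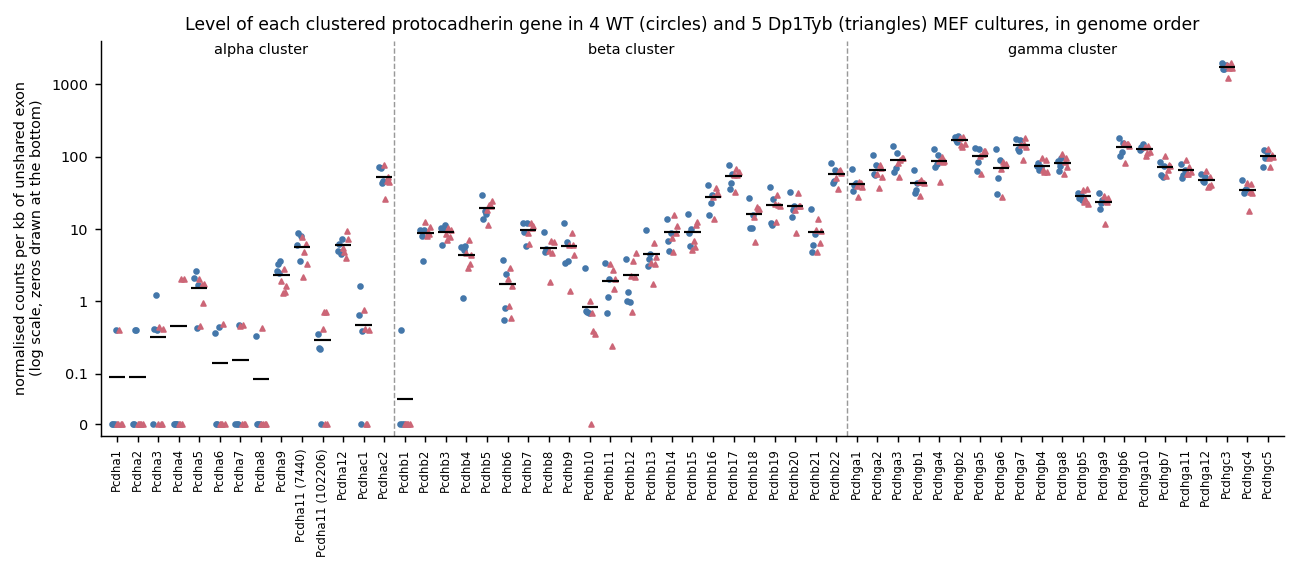
Normalised counts per kb of unshared exon on a log axis for the 57 clustered protocadherin genes in genome order, with circles for the 4 WT cultures, triangles for the 5 Dp1Tyb cultures and a bar at the mean of all 9. Pcdhgc3 stood at 1719 per kb above every other gene, Pcdhac2 was the only alpha gene above 10 per kb, and circles and triangles overlapped for each gene.

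In the alpha cluster, the C-type gene Pcdhac2, which is known for the spacing of serotonergic axons, had 53.1 ± 16.4 normalised counts per kb (SD, n = 9). Its normalised counts were 214, 211, 132 and 140 in WT replicates 1 to 4 and 234, 78.8, 141, 160 and 136 in Dp1Tyb replicates 1 to 5. Dp1Tyb replicate 1 was the highest culture and Dp1Tyb replicate 2 the lowest, with all WT cultures between them. Pcdha12 followed at 6.00 ± 1.71 per kb, Pcdha11 (ENSMUSG00000007440) at 5.59 ± 2.29 and Pcdha9 at 2.34 ± 0.85. The other C-type gene of the cluster, Pcdhac1, had between 0 and 4 counts in a culture. Of the 14 alpha genes, 9 had fewer than 15 counts over all 9 cultures together. The lowest were Pcdha1 and Pcdha8, each with 1 count in 2 of the cultures and 0 in the others. Alpha proteins other than Pcdhac2 generally need a partner protocadherin to reach the cell surface.

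In the beta cluster, Pcdhb22 had 56.9 ± 13.9 normalised counts per kb and Pcdhb17 53.6 ± 14.2 (SD, n = 9). Pcdhb16 stood at 27.8 ± 9.02 and Pcdhb19 at 21.5 ± 8.76. These 4 genes lie in the part of the cluster nearest to the gamma genes. Pcdhb22 had normalised counts of 498, 267, 285 and 406 in WT replicates 1 to 4 and of 314, 222, 393, 400 and 368 in Dp1Tyb replicates 1 to 5. The highest was a WT culture and the lowest a Dp1Tyb culture, and the other 7 were intermixed. Pcdhb17 had 353, 166, 199 and 266 normalised counts in the WT cultures and 259, 150, 310, 261 and 282 in the Dp1Tyb cultures. At the other end of the order, Pcdhb1 had 1 count in 1 culture, and Pcdhb10 had 10 counts in WT replicate 1 and between 0 and 3 elsewhere. Pcdhb1 is the first gene of the cluster.

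In the gamma cluster, the C-type gene Pcdhgc3 had 1719 ± 230 normalised counts per kb (SD, n = 9), 10.2 times the next gene. Its normalised counts were 6661, 5491, 5513 and 6230 in WT replicates 1 to 4 and 6328, 4116, 5749, 6554 and 5643 in Dp1Tyb replicates 1 to 5. The groups overlapped, and only Dp1Tyb replicate 2 lay below the WT range. Then came the B-type gene Pcdhgb2 at 168 ± 21.5 per kb, the A-type gene Pcdhga7 at 143 ± 29.1 and the B-type gene Pcdhgb6 at 136 ± 30.7. The C-type gene Pcdhgc5 stood at 101 ± 19.4 per kb and Pcdhgc4, the isoform required for the survival of certain neurons, at 35.1 ± 8.53. The lowest were Pcdhgb5 at 28.3 ± 4.60 and Pcdhga9 at 23.8 ± 5.71. The 12 A-type genes ranged from 23.8 to 143 per kb and the 6 B-type genes from 28.3 to 168, so the types were not separated by level. In the order within each cluster, only Pcdhac2 and Pcdhgc3 had a range over cultures that lay wholly above that of the next gene. The ranges of neighbours overlapped for the other 52 of 54 neighbouring pairs.

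Summed over each cluster, WT and Dp1Tyb cultures also overlapped. Alpha genes together had 222 ± 49.8 normalised counts in WT (SD, n = 4) and 189 ± 63.2 in Dp1Tyb (SD, n = 5). Beta genes together had 2217, 992, 1106 and 1567 in WT replicates 1 to 4 and 1396, 827, 1851, 1528 and 1591 in Dp1Tyb replicates 1 to 5, or 1470 ± 556 and 1439 ± 380. Gamma genes together had 12325, 9620, 9673 and 11500 in WT and 11621, 7458, 10191, 11784 and 10100 in Dp1Tyb, or 10780 ± 1351 and 10231 ± 1736. WT replicate 1 was the highest culture in the beta and gamma sums and Dp1Tyb replicate 2 the lowest in all of the sums. The difference of the mean log2 sums, Dp1Tyb minus WT, was -0.27 for alpha, -0.01 for beta and -0.09 for gamma genes. Each of these was smaller than the SD between cultures. The beta difference became 0.22 without WT replicate 1 and -0.17 without WT replicate 2, so its sign rested on single cultures.

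**Figure D2:**
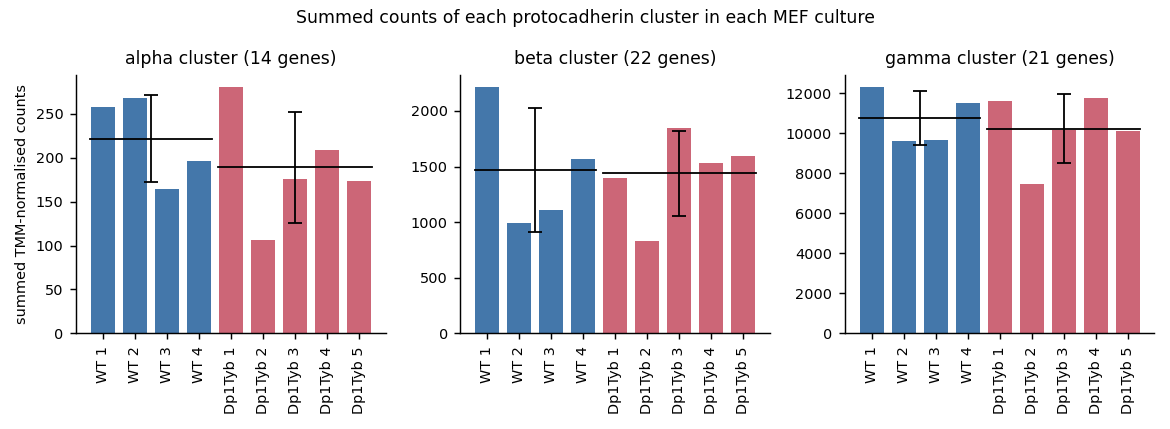
Summed TMM-normalised counts of the alpha, beta and gamma genes in each culture (bars), with the mean of each genotype as a horizontal line and its SD as an error bar. WT replicate 1 reached 2217 in the beta cluster and Dp1Tyb replicate 2 only 827, so the spread within each genotype exceeded the distance between the means.

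Of the 57 genes, 41 had enough counts to be tested, 3 alpha, 17 beta and 21 gamma genes. The 16 others were low in both genotypes, so no difference was detectable at this depth. With edgeR's quasi-likelihood test, none of the 41 differed between Dp1Tyb and WT at an adjusted p below 0.05, against 0.165% of the 14567 genes tested. None had an unadjusted p below 0.05 either, which 3.13% of all genes tested had, and DESeq2 also called none. The smallest unadjusted p among the 41 was 0.221, and all had an adjusted p of at least 0.9997 by edgeR. In none were all Dp1Tyb cultures above all WT cultures, as in 0.686% of all genes tested, or all below, as in 0.673%. The fitted log2 fold change was below 0 in 30 of the 41 genes and above 0 in 11, with a median of -0.08, beside 0.00 over all genes tested and 49.0% of those below 0. Because these genes varied together from culture to culture, as described next, the signs are not independent of each other. By cluster, the median log2 fold change was -0.22 over the 3 tested alpha genes, -0.04 over the 17 beta genes and -0.08 over the 21 gamma genes.

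**Figure D3:**
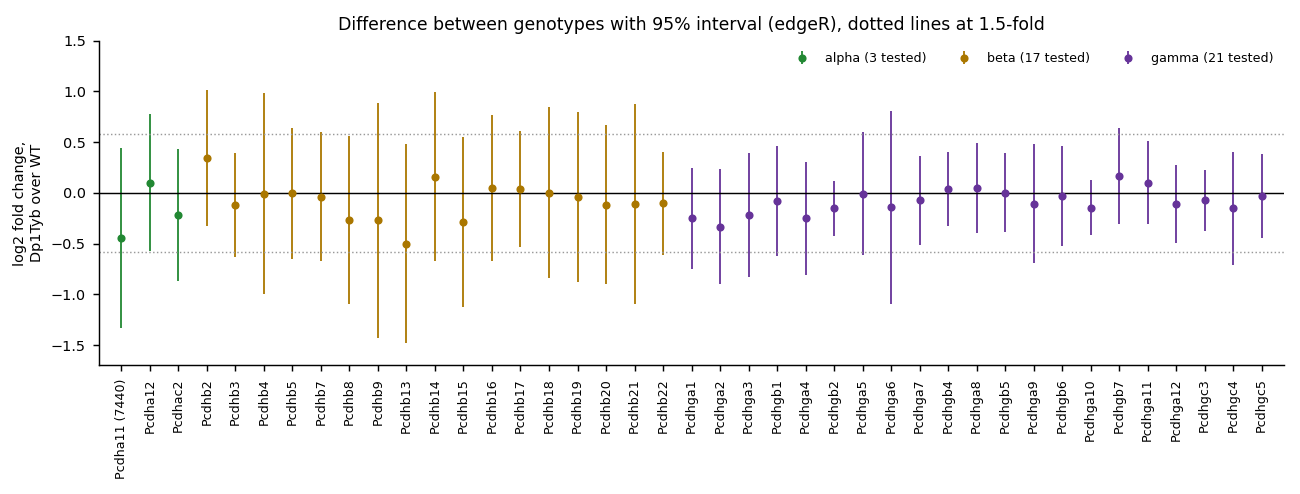
Log2 fold change of Dp1Tyb over WT with its 95% interval from edgeR for the 41 tested genes in genome order, with dotted lines at a 1.5-fold difference. Every interval includes 0, and 11 of them, all in the gamma cluster, lie wholly within the dotted lines.

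The absence of a call bounds the difference more tightly for some genes than for others. The 95% interval of the fold change lay within 1.5-fold in either direction for 11 of the 41 genes, all of them gamma genes, and within 2-fold for 33. It was narrow for Pcdhgc3, with a log2 fold change of -0.07 (95% interval -0.37 to 0.23). It was also narrow for Pcdhgb2, at -0.15 (95% interval -0.42 to 0.12), and for Pcdhgc5, at -0.03 (95% interval -0.44 to 0.39). For Pcdhgc4 it was -0.15 (95% interval -0.71 to 0.40) and for Pcdhac2 -0.22 (95% interval -0.87 to 0.43). None of the 17 beta genes and none of the 3 alpha genes had an interval within 1.5-fold, while 11 and 2 of them had one within 2-fold. Pcdhb22 had -0.10 (95% interval -0.61 to 0.40), Pcdhb17 0.04 (95% interval -0.54 to 0.61) and Pcdhb16 0.05 (95% interval -0.67 to 0.77). Pcdhb19 had -0.04 (95% interval -0.88 to 0.80).

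The genes with the smallest unadjusted p still had overlapping cultures. Pcdhga2, the lowest p of all, had 269, 147, 143 and 198 normalised counts in WT replicates 1 to 4 and 149, 93.9, 196, 179 and 134 in Dp1Tyb replicates 1 to 5. WT replicate 1 was the highest and Dp1Tyb replicate 2 the lowest, as in the sums. Its log2 fold change was -0.33 (95% interval -0.90 to 0.24). Pcdhgb2 had 518, 475, 438 and 534 normalised counts in WT and 498, 406, 373, 525 and 410 in Dp1Tyb, with an unadjusted p of 0.233 by edgeR. Pcdhga10 had 320, 351, 344 and 390 in WT and 360, 265, 292, 372 and 300 in Dp1Tyb, and its log2 fold change was -0.14 with an unadjusted p of 0.263 by edgeR. On the other side, Pcdhb2 had 27.3, 22.7, 10.2 and 27.0 normalised counts in WT and 35.6, 22.7, 25.9, 24.2 and 30.5 in Dp1Tyb. The log2 fold change of Pcdhb2 was 0.34 (95% interval -0.33 to 1.02), and WT replicate 3 alone lay well below the Dp1Tyb cultures. Pcdhgb7 followed at 0.17 (95% interval -0.30 to 0.64) and Pcdhga11 at 0.10 (95% interval -0.31 to 0.52).

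Levels varied between cultures of the same genotype, and much of this variation was shared among the genes. The SD of log2 levels around the genotype means had a median of 0.59 over the 17 tested beta genes and 0.33 over the 21 gamma genes, beside 0.22 over all genes tested. In 33 of the 41 tested genes, this SD was more than 2 times the SD that counting error alone gives. These were 1 of 3 alpha, 12 of 17 beta and 20 of 21 gamma genes. The same share over all genes tested was not computed, and the SDs were not matched for count level. The ratio of the highest to the lowest culture was between 1.89 and 8.44 among beta genes and between 1.43 and 4.56 among gamma genes. Dp1Tyb replicate 2 was the lowest culture for 28 of the 41 genes, beside 27.0% of all genes tested, and WT replicate 1 was the highest for 24, beside 24.9% of all genes tested.

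Co-variation was measured as the Pearson correlation r of log2 normalised counts, with a pseudocount of 1, over the 9 cultures after centring on the genotype means. These values are descriptions over 9 libraries, and the same libraries enter every pair. The median r was 0.77 over the 136 pairs of beta genes, of which 135 were positive, and 0.72 over the 210 pairs of gamma genes, of which 198 were positive. It was 0.63 over the 357 pairs of a beta and a gamma gene. The 3 pairs of tested alpha genes had a median of 0.40, pairs of an alpha and a gamma gene 0.52 and pairs of an alpha and a beta gene 0.34. Over all pairs of genes tested, the median was -0.0003, with quartiles at -0.42 and 0.42. Within the 7 cultures of the second set, the medians were 0.74 for beta pairs, 0.75 for gamma pairs and 0.65 between them, and the first set holds too few cultures for a value. Without WT replicate 1 and Dp1Tyb replicate 2, the cultures farthest from the median of the beta sum, the medians were 0.50, 0.56 and 0.16. Those 2 cultures were picked by their beta sums, so leaving them out narrows the range of levels and can by itself lower these medians. Of these medians, the one between the beta and gamma clusters fell the most in the other 7 cultures. The median between alpha and beta genes, given below, fell further. The medians within the beta and gamma clusters were lower as well but stayed above the median over all pairs of genes in those cultures, -0.001.

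**Figure D4:**
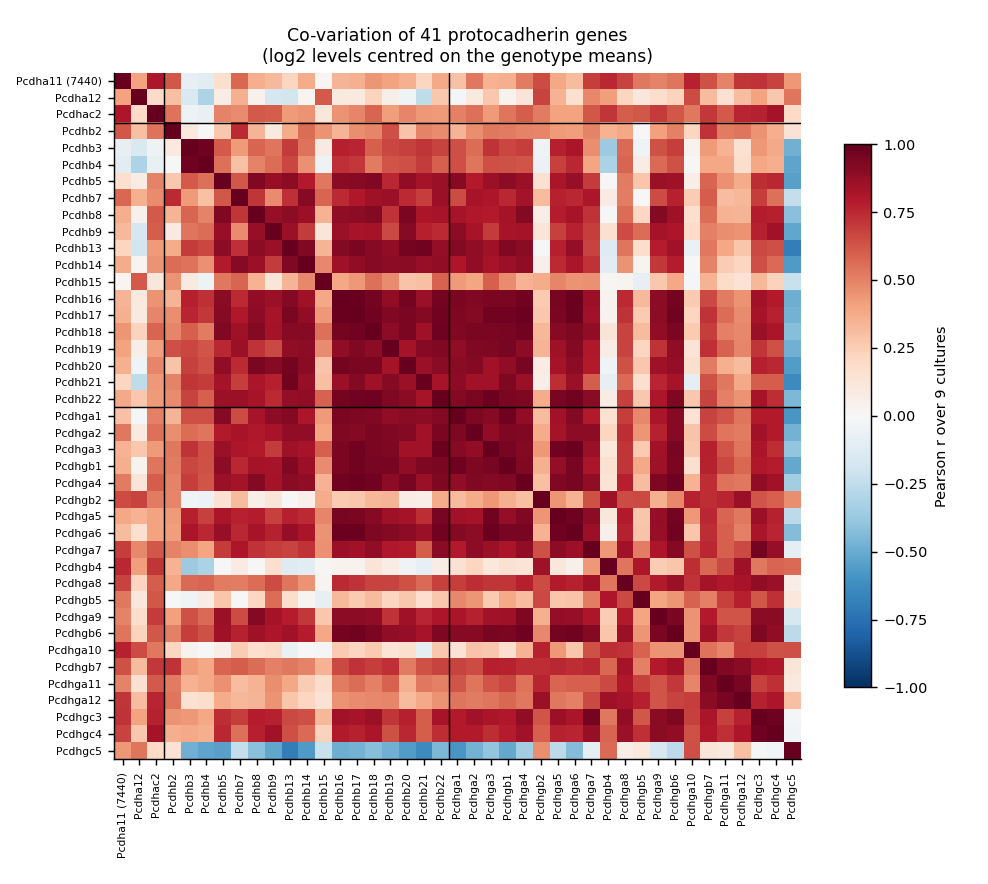
Pearson r over the 9 cultures, from blue at -1 to red at 1, for each pair of the 41 tested genes in genome order, with lines between the alpha, beta and gamma clusters. The dark block of beta genes, with a median r of 0.77 and paler stripes at Pcdhb2 and Pcdhb15, continues into the first gamma genes. Pcdhgb2, Pcdhgb4, Pcdhgb5, Pcdhga10 and Pcdhgc5 are pale or blue against most beta genes and the first gamma genes. Among themselves, these gamma genes had r from 0.11 (Pcdhgb5 and Pcdhgc5) to 0.85 (Pcdhgb2 and Pcdhgb4).

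High and low correlations were found both with and without shared exons. The median r among beta genes, which share no constant exon, was above that among gamma genes, which all share theirs, over the 9 cultures, and just below it in both smaller sets of cultures given above. Pcdhb17 and Pcdhga4, which lie in different clusters and share no exon, had r = 0.98. Pcdhb17 and Pcdhb22 had r = 0.96. Of the pairs that overlap in their variable parts, Pcdhgb1 and Pcdhga4 had r = 0.93 and Pcdhb21 and Pcdhb22 had r = 0.82, whereas Pcdhgb4 and Pcdhga8 had r = 0.54. Among the C-type genes, Pcdhgc3 and Pcdhgc4 had r = 0.97, while Pcdhgc3 and Pcdhgc5 had r = -0.01. Pcdhac2 and Pcdhgc4 had r = 0.83 across clusters.

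The gamma genes differed in how closely they followed the beta cluster. Each gene was set against the summed level of the beta cluster, with the gene itself left out of the sum if it was a member. Among the 17 tested beta genes, r with the sum of the others had a median of 0.91 and was above 0.80 in 13. It was lowest in Pcdhb15, at 0.46, and Pcdhb2, at 0.47. Among the gamma genes, r with the beta sum was above 0.80 in 11 of 21. These were 8 of the 12 A-type genes, 2 of the 6 B-type genes and Pcdhgc3. The genes at the start of the gamma cluster, Pcdhga1, Pcdhga2, Pcdhga3, Pcdhgb1 and Pcdhga4, had r between 0.94 and 0.97. Pcdhga6 had the widest range of any gamma gene, with 330, 78.5, 132 and 235 normalised counts in WT replicates 1 to 4 and 177, 72.3, 221, 202 and 206 in Dp1Tyb replicates 1 to 5. These values followed the beta sum with r = 0.97 over 9 cultures, r = 0.96 in the second set and r = 0.91 without the 2 farthest cultures, and Spearman's rho over 9 cultures was 0.95.

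Other gamma genes followed the beta sum less closely over the 9 cultures. Pcdhgb4 had 271, 289, 238 and 257 normalised counts in WT and 347, 235, 222, 326 and 222 in Dp1Tyb, with r = 0.03 over 9 cultures, -0.04 in the second set and -0.50 without the 2 farthest cultures. In the same order, r with the beta sum was 0.26, 0.19 and -0.08 for Pcdhgb2 and 0.25, 0.12 and -0.42 for Pcdhgb5. For Pcdhga10 it was 0.18, 0.57 and -0.05, so its low value over 9 cultures did not hold in the second set. Together with Pcdhgb4, these were the 4 gamma genes with the smallest ratio of the highest to the lowest culture, which was 1.43 in Pcdhgb2, 1.47 in Pcdhga10 and 1.56 in Pcdhgb4. Pcdhgc5 was the only tested gene whose r with the beta sum was negative over 9 cultures. It had 335, 568, 445 and 530 normalised counts in WT and 583, 442, 336, 487 and 455 in Dp1Tyb, so WT replicate 1 and Dp1Tyb replicate 3, the cultures with the highest beta sums, were its lowest. Its r was -0.52 over 9 cultures, with Spearman's rho of -0.47, -0.28 in the second set and -0.47 without the 2 farthest cultures. Pcdhgc3 and Pcdhgc4 had r = 0.81 and 0.75 with the beta sum over 9 cultures, but 0.26 and -0.18 without the 2 farthest cultures. Pcdhac2 went from 0.48 to -0.64 in the same way.

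**Figure D5:**
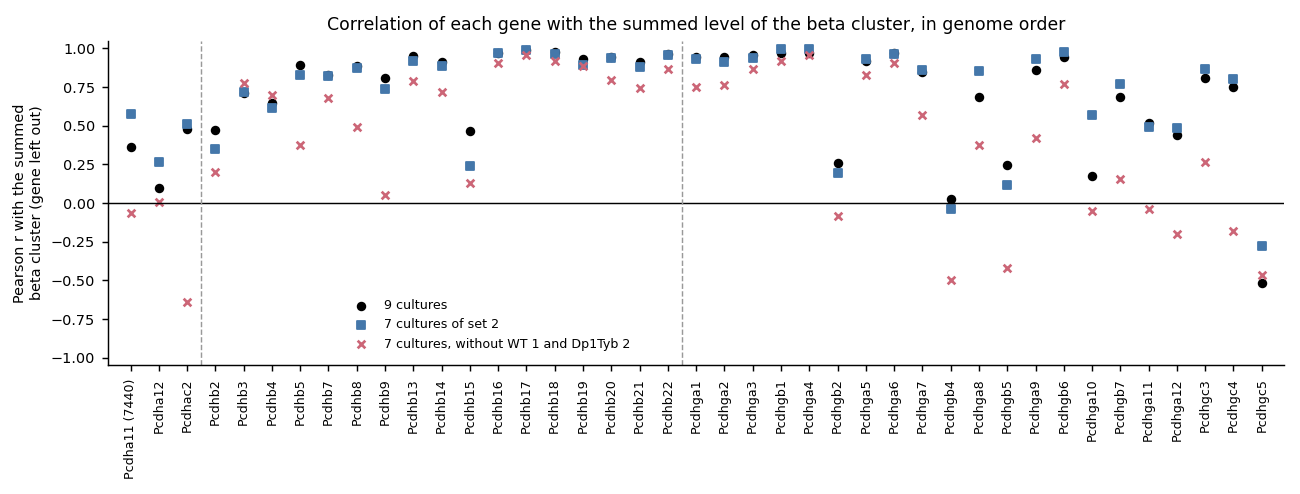
Pearson r of each tested gene with the summed level of the beta cluster, in genome order, over 9 cultures (black circles), the 7 cultures of the second set (blue squares) and 7 cultures without WT replicate 1 and Dp1Tyb replicate 2 (red crosses). Pcdhga6 kept r between 0.91 and 0.97 under all of these, whereas Pcdhgc3 went from 0.81 over 9 cultures to 0.26 without those 2.

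The cluster sums were themselves related. Over 9 cultures the beta and gamma sums had r = 0.82 (Spearman's rho 0.55), the alpha and gamma sums r = 0.77 (rho 0.53) and the alpha and beta sums r = 0.47 (rho 0.22). Without WT replicate 1 and Dp1Tyb replicate 2, r was 0.32, 0.33 and -0.53. Within the second set, r was 0.87, 0.71 and 0.53.

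Summed levels of markers of the fibroblasts and of other cells were set against the beta sum across cultures. A sum follows its most abundant genes, and members of a list could go the other way. Over the 9 cultures, the summed level of the 10 fibroblast markers had r = 0.91 with the beta sum (rho 0.93), 0.93 in the second set and 0.78 without the 2 farthest cultures. The collagen gene Col3a1 had 282366 normalised counts in WT replicate 1 and 57834 in Dp1Tyb replicate 2, the cultures with the highest and the lowest beta sum, whereas Vim, the intermediate filament gene vimentin, had 63053 and 129616. Over 9 cultures, r with the beta sum was -0.94 for Vim, -0.27 for Thy1 and between 0.84 and 0.93 for the other fibroblast markers. The fibroblast markers summed to 810913 to 1211280 in WT cultures, against 604992 to 1257100 in Dp1Tyb cultures. The 10 skeletal muscle markers had r = -0.81 with the beta sum, -0.86 in the second set and -0.14 without the 2 farthest cultures. They summed to 352 to 1984 in WT, against 676 to 6784 in Dp1Tyb. In Dp1Tyb replicate 2, skeletal actin, Acta1, gave 5887 of the 6784 normalised counts, while Myod1, Myog, Myf5 and Ckm had at most 3 counts in every culture. Over 9 cultures, Acta1 had r = -0.95 with the beta sum, whereas Des had 0.22. The 10 macrophage markers had r = 0.68, and 0.97 and 0.73 in those smaller sets of cultures, and summed to 977 to 3557 in WT, against 304 to 5710 in Dp1Tyb, with C1qb, a complement gene, the highest. The 10 neuron markers had r = -0.82, -0.77 in the second set and only -0.24 without the 2 farthest cultures. They summed to 1675 to 2295 in WT, against 1752 to 2987 in Dp1Tyb, chiefly tubulin Tubb3. Over 9 cultures, Tubb3 had r = -0.78 and Stmn2 -0.96 with the beta sum, whereas Map2 had 0.87. The 8 endothelial markers, led by Kdr, had r = -0.52, -0.78 and -0.47 in the same order and summed to 199 to 414 in WT, against 151 to 560 in Dp1Tyb. Kdr itself had r = -0.70 over 9 cultures, whereas Tek had 0.68. The 8 epithelial markers, led by the keratin gene Krt18, had r = 0.43, but -0.24 in the second set and -0.23 without the 2 farthest cultures. They summed to 256 to 580 in WT, against 231 to 341 in Dp1Tyb. Krt18 itself had r = -0.48 over 9 cultures, whereas Krt8 had 0.72. Total counts of the libraries had r = 0.72 with the beta sum, 0.55 in the second set and 0.35 without the 2 farthest cultures. The part of these in the co-variation of the protocadherin genes was not tested.

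The 10 Schwann and glial markers summed to 1252 to 2467 in WT, against 497 to 1312 in Dp1Tyb, and they had r = 0.34 with the beta sum, 0.10 in the second set and -0.001 without the 2 farthest cultures. None was called by edgeR, whereas 5 of 9 tested had an unadjusted p below 0.05 by edgeR, beside 3.13% of all genes tested. DESeq2, which called 67 genes in all, called 4 of these markers. All of these were lower in Dp1Tyb. Sox10, a transcription factor of these cells, had a log2 fold change of -1.71 (SE 0.38, adjusted p = 0.403 by edgeR and 0.00433 by DESeq2). Of the other marker lists, none held a gene called by edgeR. An unadjusted p below 0.05 by edgeR, which 3.13% of all genes tested had, was found in 2 of 5 tested muscle markers, both called by DESeq2. It was found in 1 of 4 tested endothelial markers and in no fibroblast, neuron, macrophage or epithelial marker. The part of these markers in the protocadherin values was not tested.

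The shares of the leading isoforms within their clusters were close in WT and Dp1Tyb. A gene's share was its level per kb of unshared exon over that of its cluster. Pcdhgc3 took 51.9% ± 2.23 of the gamma cluster in WT (SD, n = 4) and 51.9% ± 0.47 in Dp1Tyb (SD, n = 5), with a range of 49.7% to 54.1%. Pcdhac2 took 74.8% ± 5.80 of the alpha cluster in WT and 74.4% ± 3.64 in Dp1Tyb. Pcdhb22 took 19.9% ± 1.51 of the beta cluster in WT and 19.0% ± 1.97 in Dp1Tyb. Pcdhb17, the next beta gene, took 17.6% ± 0.80 in WT and 18.5% ± 0.67 in Dp1Tyb, with overlapping cultures. As a measure of diversity, the effective number of isoforms is the exponential of the Shannon entropy of the shares, which equals the number of genes if all have the same share. It was 13.2 ± 0.58 of 22 for the beta cluster in WT and 13.0 ± 0.66 in Dp1Tyb. It was 7.93 ± 0.58 of 21 for the gamma cluster in WT and 7.94 ± 0.16 in Dp1Tyb, and 17.5 ± 0.41 and 17.6 ± 0.35 of 20 when Pcdhgc3 was set aside. For the alpha cluster it was 2.64 ± 0.44 of 14 in WT and 2.63 ± 0.29 in Dp1Tyb. The difference in the share of Pcdhb17 was slightly larger than the SD of either genotype and was not tested. All of the other differences given here between genotypes were smaller than the SD between cultures.

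Related genes were examined in the same fit, in lists fixed by function. Of 21 nonclustered protocadherins and relatives, 19 were tested and none was called by edgeR, while 4 had an unadjusted p below 0.05 by edgeR, beside 3.13% of all genes tested. DESeq2, which called 67 genes in all, called 1. All 4, Pcdh1, Celsr1, Pcdh20 and Celsr2, had a fitted log2 fold change below 0. The gene called by DESeq2 was Pcdh1, which lies outside the clusters on chromosome 18 and encodes an adhesion protein. It had 274, 254, 338 and 213 normalised counts in WT replicates 1 to 4 and 150, 187, 138, 102 and 83.2 in Dp1Tyb replicates 1 to 5, so the genotypes did not overlap. The log2 fold change of Pcdh1 was -1.03 (SE 0.24, adjusted p = 0.403 by edgeR and 0.0136 by DESeq2). Celsr1, a planar polarity cadherin, had a log2 fold change of -0.90 (SE 0.24, adjusted p = 0.703 by edgeR). The median log2 fold change of the list was -0.09.

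Of 17 genes for promoter choice and silencing of the clusters, such as Ctcf, cohesin subunits, Smchd1 and DNA methyltransferases, all were tested and none was called by edgeR or DESeq2 or had an unadjusted p below 0.05 by edgeR. Their median log2 fold change was -0.07, with 13 below and 4 above 0. Rest, a repressor of neuronal genes, had a log2 fold change of -0.10 (SE 0.09), with an unadjusted p of 0.277 by edgeR. As a sum, the list had r = 0.84 with the beta sum over 9 cultures, 0.87 in the second set and 0.55 without the 2 farthest cultures. Over its 17 genes, r with the beta sum ran from -0.36 in Wapl, which releases cohesin, to 0.94 in Dnmt3a, a de novo DNA methyltransferase, and both were chosen after their values were seen. Dnmt3a varied from 745 normalised counts in Dp1Tyb replicate 2 to 2798 in WT replicate 1. Ctcf, with r = 0.85, varied from 1284 to 1811 normalised counts, and Rest had r = 0.29. Of 19 genes for partners of protocadherin proteins, such as the WAVE complex and the proteases that cut protocadherins, all were tested and none was called by edgeR or DESeq2 or had an unadjusted p below 0.05 by edgeR. The smallest unadjusted p by edgeR were those of Cyfip2 (0.0677, with a log2 fold change of -0.41 and an SE of 0.20) and Wasf1 (0.198, with a log2 fold change of -0.17 and an SE of 0.12), both of the WAVE complex. The partner list as a sum had a higher r with the beta sum than the promoter list, 0.90 over 9 cultures. It had 0.95 in the second set and 0.94 without the 2 farthest cultures. Over its 19 genes, r ran from -0.94 in Ptk2b to 0.89 in Marcks, both chosen after their values were seen.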

How the data were processed

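RNA from MEF cultures was sequenced from stranded mRNA libraries as paired reads of 100 bases. The authors trimmed adapters with Trim Galore, mapped reads to GRCm38 with TopHat 2.0.12, discarded reads that aligned to several places and counted the rest per Ensembl gene with htseq-count. The strand setting, overlap mode and annotation release are not given in the sources used here. The counts used here are those raw counts as deposited, without normalisation. The authors' table of counts divided by size factors, and their DESeq2 1.6.3 table, which holds mean levels, fold changes with errors, test statistics and p-values of Dp1Tyb against WT, were not used.

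Of the 43629 genes listed, 42548 were matched to GENCODE M21, from which exon lengths, shared exon bases and symbols were taken. Groups come from the genotype labels. Genes were tested with edgeR 4.0.16 in R 4.3.3 (TMM factors, edgeR's filter on low counts, quasi-likelihood test, two-sided, Benjamini-Hochberg adjusted p below 0.05, no covariate), with DESeq2 1.42.0 as an alternative. The fit was checked on simulated counts with the same dispersion for all genes and no variation shared between genes. That check does not cover the wider and shared spread of the protocadherin genes. Intervals are 95% intervals of the fit. Counts of 3 or fewer in a culture were taken as at the floor. Correlations used log2 of normalised counts with a pseudocount of 1. Python 3.11.15, numpy 2.4.6, scipy 1.17.1, pandas 2.3.3 and matplotlib 3.10.9 were used.

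The genes and lists were chosen with earlier results of these data known. Text names the C-type genes, in each cluster the 4 highest and 2 lowest by level, the 3 tested genes with the smallest unadjusted p in each direction and any called gene. In related lists it names called genes and the 2 with the smallest unadjusted p, and in marker lists the gene with the highest level and those at the floor in every culture. Other genes are named where a pattern turns on them and were then chosen after their values were seen. Alternatives were other size factors, DESeq2 with and without its beta prior, other filters, a replicate block, a covariate for the culture set, the second set alone, each culture left out, and for correlations and shares other pseudocounts, centrings, count minimums and exon lengths. Cultures with the same replicate number were not treated as pairs. No sequence of these genes is reported here. One gene that the naming rule selects in a related list is not reported here.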

Additional observations from a re-analysis of the deposited data

Results flagged for a closer look

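Samples that stood apart from the others of their genotype by Dixon's criterion were looked for in 90 groups of values, and 8 did so, where chance gives about 1 in 20. Among protocadherin genes, Pcdhb10 had 8.28 normalised counts in WT replicate 1 and between 2.00 and 2.07 in the other WT cultures, which are counts near the floor. Pcdhgb6 had 211 normalised counts in Dp1Tyb replicate 2 and between 360 and 397 in the other Dp1Tyb cultures. The effective number of beta isoforms was 14.02 in WT replicate 1 and between 12.8 and 13.0 in the other WT cultures. The share of Pcdhgc3 in the gamma cluster was 51.0% in Dp1Tyb replicate 1 and between 52.0% and 52.2% in the other Dp1Tyb cultures, a small gap within a narrow range.

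Outside the clusters, Wasf1 had 299 normalised counts in WT replicate 1 against 227 to 239 in the other WT cultures, and 264 in Dp1Tyb replicate 1 against 202 to 218 in the other Dp1Tyb cultures. Acta1 had 5887 in Dp1Tyb replicate 2 against 132 to 271, and Kdr had 354 in WT replicate 2 against 132 to 169. Wasf1 thus stood apart in both cultures of the first set.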

How the results depend on the processing

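No member of the clusters was called, and none had cultures that did not overlap between the genotypes, under any alternative run, the replicate block and each culture left out included. For overlap, the replicate block and the set covariate were not run, since they leave the normalised counts as they are. The number of all genes called was 24, and 67 by DESeq2 with or without its beta prior, 0 with the replicate block, 1 in the second set alone and between 2 and 26 when a culture was left out. Genes with an unadjusted p below 0.05 numbered 456, and 696 without a filter, 800 with the replicate block and between 338 and 683 when a culture was left out. DESeq2, with or without its beta prior, called 1 nonclustered protocadherin, Pcdh1. Of 359 alternative values of the 20 tested members of the clusters that the naming rule selects, 40 had another sign than the reported one, in 13 genes, and none was called.

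Replicate numbers were not treated as pairs, because the correlation of deviations of same-numbered cultures ran from 0.03 to 0.73 over 4 pairs and only 1 of the 4 WT cultures correlated best with its own number. The mean correlation was nevertheless higher for same-numbered cultures, at 0.35, than for the other pairs of a WT and a Dp1Tyb culture, at -0.09.

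When each culture was left out, the median log2 fold change ran from -0.43 to -0.06 for alpha, -0.22 to 0.23 for beta and -0.15 to 0.04 for gamma genes, and the difference of summed levels from -0.42 to -0.08, -0.17 to 0.22 and -0.14 to 0.02. The median correlation then ran from 0.28 to 0.55 within alpha, 0.70 to 0.85 within beta and 0.61 to 0.78 within gamma, and from -0.091 to 0.45 between alpha and beta, 0.20 to 0.69 between alpha and gamma and 0.47 to 0.69 between beta and gamma. The effective number ran from 2.56 to 2.69 for alpha, 12.95 to 13.17 for beta and 7.86 to 8.01 for gamma, and the shares from 73.8% to 75.5% for Pcdhac2, 19.2% to 19.7% for Pcdhb22 and 51.6% to 52.1% for Pcdhgc3.

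Without WT replicate 1 and Dp1Tyb replicate 2, an alternative added after seeing the data, the median correlation was 0.28 within alpha, 0.50 within beta, 0.56 within gamma, -0.29 between alpha and beta, 0.31 between alpha and gamma and 0.16 between beta and gamma. It was 0.55 within alpha both in the second set alone and centred on genotype and set. With members of at least 50 mean counts it was 0.91 within beta and 0.75 between beta and gamma. By Spearman it was 0.63 within gamma and 0.17 between alpha and beta, and without centring it was 0.66 within gamma. Without a length correction, the share of Pcdhb22 was 24.5% and the effective number for beta 11.3, and for gamma 55.5% for Pcdhgc3 and 7.11. With whole exon lengths they were 54.3% and 7.38 for gamma. The cause of these changes was not tested. Other alternatives moved these values by less than the spread between cultures.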

Other observations

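The polymorphic pseudogene Pcdhgb8, which shares the gamma constant exons, had between 16 and 31 counts per culture. The genes Gm42416, Gm37013, Gm37388 and Gm38182, which join alpha or gamma variable exons to gamma constant exons, had no count in any culture. They share exons with members of the clusters, and reads there cannot be given to a single gene. The lack of counts therefore does not show that they were not transcribed.

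The summed level of the nonclustered protocadherins had r = 0.94 with the gamma sum over 9 cultures (rho 0.92), 0.98 in the second set and 0.88 without WT replicate 1 and Dp1Tyb replicate 2. With the beta sum it had r = 0.77, 0.81 and -0.03. Fat1 alone gave between 20571 and 27620 normalised counts of this sum, which ran from 36748 to 48748, and had r = 0.56 with the gamma and 0.07 with the beta sum. Other members had a higher r with the beta than with the gamma sum, among them Pcdh11x with 0.96 and 0.88 and Fat4 with 0.90 and 0.85. These are descriptions over the same libraries, the genes were chosen after their values were seen, and the difference was not tested.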
